A study of Mus musculus with 72 samples.

Results

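The miR-34 family of the mouse was followed in liver and lung 48 h after whole body irradiation (WBI) with X-rays. Members were the miRNA array probes, control probes excluded, whose annotated name starts with miR-34a, miR-34b or miR-34c, both arms of each hairpin included. The rule gave 6 mature miRNAs of the 1881 on the array, read by 12 probes of 4415, with 2 probes per miRNA and 15 spots per probe on every array. RNA came from female C57BL/6 J mice aged 6 to 8 weeks, which received a single exposure at 1.05 Gy/min to 12, 8, 4, 2 or 1 Gy, or were sham irradiated (0 Gy). There were 3 mice per dose and no genotype or second treatment, and liver and lung with the same mouse number were taken as the same animal. Each RNA sample had 1 miRNA array and 1 mRNA array, which gave 36 miRNA arrays.

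The miR-34 family is known as a group of direct transcriptional targets of p53, the transcription factor that is stabilised by DNA damage. A mature miRNA guides the silencing complex to mRNAs through its seed, bases 2 to 8 from the 5′ end, and the 5p arms of the family are known to repress cell cycle and survival genes. Mir34a has a gene of its own, while Mir34b and Mir34c are processed from 1 transcript and are known to be abundant in multiciliated airway cells, together with the related miR-449 cluster. The passenger strands (the 3p arms) usually accumulate to lower levels than the guide strands.

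The mature sequences are shown because the seed defines the family and because related arms share part of their sequence. Sequences and positions are from RefSeq on GRCm38.p6, in which 5 of the 6 mature miR-34 sequences matched by name, and the seed is in capitals. The 5p arms of miR-34a and miR-34b share the seed GGCAGUG with miR-449a-5p and miR-449c-5p, and no other of the 1738 mature sequences in the table has it. The miR-34c-5p sequence was not among them and could not be compared.
miR-34a-5p: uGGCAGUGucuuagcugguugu
miR-34b-5p: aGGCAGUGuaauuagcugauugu
miR-449a-5p: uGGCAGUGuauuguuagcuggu
miR-449c-5p: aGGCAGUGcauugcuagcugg
The 3p arms of miR-34b and miR-34c share the seed AUCACUA with each other only, and miR-34a-3p has a seed of its own.
miR-34b-3p: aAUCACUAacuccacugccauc
miR-34c-3p: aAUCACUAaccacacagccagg
miR-34a-3p: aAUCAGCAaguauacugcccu
Compared base by base from the 5′ end, miR-34a-5p and miR-449a-5p match at 15 of 22 positions, and miR-34b-3p and miR-34c-3p at 17 of 22. The miR-34a-5p sequence lies at chr4:150068473-150068494 on the plus strand, within the Mir34a hairpin. The hairpins of Mir34c and Mir34b lie on the minus strand of chromosome 9 with 451 bases between them, and miR-34b-5p is at chr9:51103610-51103632. The miR-34c-5p probes are named here without a sequence.

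The share of spots well above background was 7.45% to 16.9% per array in liver and 14.5% to 17.6% in lung, and none was saturated. In liver, 390 miRNA probes were well above background on at least 1 array and were tested, and in lung 762. To count as well above background in a sample, a probe needed that flag in a share of 0.5 or more of its spots. A probe was called where its log2 fold change was above 1 in size and its Benjamini-Hochberg adjusted p was below 0.05 over all tested probes of the tissue, in a limma model of the 6 dose groups. Levels are log2 normalised intensities, which can be compared between samples for 1 probe but not between probes. The miRNA arrays lay on 5 slides of 8 positions each, and dose was not spread evenly over them. All 3 lung controls and the 1 Gy lungs shared a slide that held no lung of a higher dose, so among the lung arrays alone the differences of higher doses from the controls cannot be told apart from the slide. All 3 liver controls were on a slide without livers at 4 Gy or above, but 1 and 2 Gy livers linked that slide to the others. On the mRNA arrays the lung controls and the 1 Gy lungs also shared a slide without lungs of a higher dose. The lung mRNA changes at 2 Gy and above, in all gene lists below, therefore cannot be told apart from the slide either. Tissues were taken from the sample labels, as the text on the whole series names lung in 1 place and hearts in another. On the mRNA arrays, 8 of 8 hepatocyte genes were well above background in all 18 livers and 6 of 6 alveolar type 2 genes in all 18 lungs. Detection alone did not separate the tissues, as Alb, Ahsg, Hpx and Apoh were also so in all 18 lungs, Lamp3 and Abca3 in all 18 livers and Sftpa1 in 17, while Slc34a2 was so in 0 livers and Sftpb in 3.

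Detection separated the family by tissue. In liver, the 2 probes of miR-34a-5p were well above background in 15 of 15 spots on all 18 arrays, and the other 10 member probes were so on 0 arrays, with at most 3 spots of 15. In lung, 11 of the 12 probes were well above background on at least 1 array and 8 on all 18. The exception in lung was a miR-34a-3p probe (A_54_P00004931), with at most 1 spot of 15. Thus 2 liver probes and 11 lung probes entered the tests below, and the liver levels of miR-34b and miR-34c can only be bounded.

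**Figure D1:**
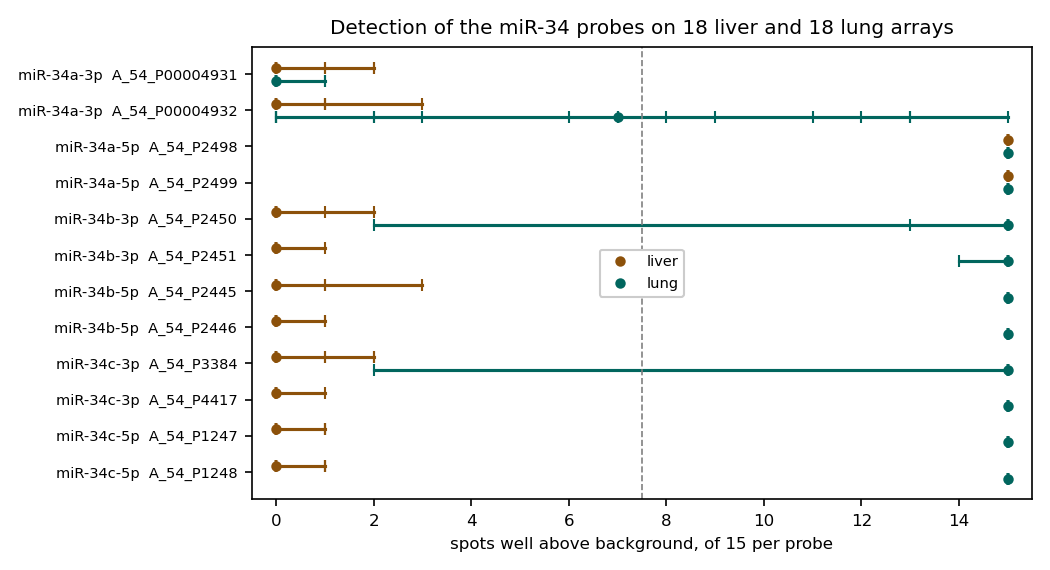
Spots well above background (x axis, of 15 per probe) for the 12 miR-34 probes on 18 liver and 18 lung arrays. Ticks are arrays, dots medians, lines ranges, and the dashed line marks 0.5 of the spots. Liver arrays lie at 15 for the 2 miR-34a-5p probes and at 3 or below for the other 10.

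In liver, miR-34a-5p rose with dose. For the brighter probe (A_54_P2499), the control livers had log2 levels of 8.69, 8.92 and 9.19. At 1 Gy the levels were 9.10, 9.68 and 9.63, and at 2 Gy 9.85, 9.82 and 9.43. At 4 Gy they were 10.02, 10.15 and 10.18. The 1 Gy livers overlapped with the controls, while every liver at 2 Gy and above was higher than every control. Groups wholly above the controls made up 12.6%, 2.05%, 4.87%, 13.3% and 5.38% of all liver probes from 1 to 12 Gy. At 8 Gy the levels were 10.02, 10.35 and 10.38, and at 12 Gy 10.76, 10.40 and 10.35. All 9 livers at 4, 8 and 12 Gy were above all 6 livers at 1 and 2 Gy, and the 8 Gy group overlapped with both the 4 Gy and the 12 Gy group, which did not overlap with each other. The share of all liver probes with irradiated groups apart in this way was not counted.

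From the lowest dose to the highest, the log2 fold changes against 0 Gy were 0.54, 0.77, 1.18, 1.32 and 1.57 (standard error 0.18, n = 3 mice per dose). The adjusted p values from limma were 0.565, 0.101, 0.00119, 0.000335 and 3.57e-05. At 12 Gy the level was 2.97-fold that of the controls. The second probe (A_54_P2498) gave 0.47, 0.83, 1.32, 1.28 and 1.51 (standard error 0.19), with adjusted p values of 0.612, 0.101, 0.00117, 0.000585 and 7.75e-05. Both probes were therefore called at 4, 8 and 12 Gy and neither at 1 or 2 Gy in this fit, where limma called 0 of 390 probes (24 and 21 had an unadjusted p below 0.05). At 4 Gy and at 8 Gy, 0.513% of the 390 tested probes were called higher, which is these 2 probes alone, and at 12 Gy 1.28% were.

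With a slide term in the liver fit, the 12 Gy changes were 2.14 (A_54_P2499) and 2.25 (A_54_P2498), the same 3 doses were called, and the 2 Gy changes had adjusted p values of 0.0258 and 0.0148. With a slide term in a fit of both tissues, which was chosen after seeing the data, the adjusted p values were 0.0127 and 0.0336 at 1 Gy and 0.000214 for both at 2 Gy, with changes of 0.84 and 0.76 and of 0.89 and 0.99. The 12 Gy livers of mice 16 and 26 had the highest shares of spots above background in liver, at 14.1% and 16.9% against a median of 9.12%. Without either of them the 12 Gy change of A_54_P2499 was 1.63 or 1.65.

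No step between neighbouring doses in liver passed the test for either probe without a slide term, including that from 4 to 8 Gy, where 3.33% of the liver probes rose with an adjusted p below 0.05 (0% at the other steps). With the slide term in the fit of both tissues, the step from 2 to 4 Gy passed for A_54_P2498 (0.79, adjusted p = 0.010). Fitted as a linear trend, miR-34a-5p rose by 1.34 (A_54_P2499, adjusted p = 0.00014) and 1.28 (A_54_P2498, adjusted p = 0.000515) on the log2 scale over 12 Gy, and 2.31% of the tested probes had a called upward trend. Over all 390 liver probes the median log2 fold change at 12 Gy was -0.18. Scaling each array to its 75th percentile over all probes left 0 of the 6 liver calls, although the 12 Gy changes of 1.37 and 1.46 were close to those above (adjusted p = 0.964), and turned the 2 Gy values of both probes below 0. Within slides, the brighter probe differed from 0 Gy by 0.75 at 1 Gy (1 liver against 3) and 0.90 at 2 Gy (2 against 3). On another slide, the 4 Gy livers were 0.69 above the 2 Gy liver (3 against 1).

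**Figure D2:**
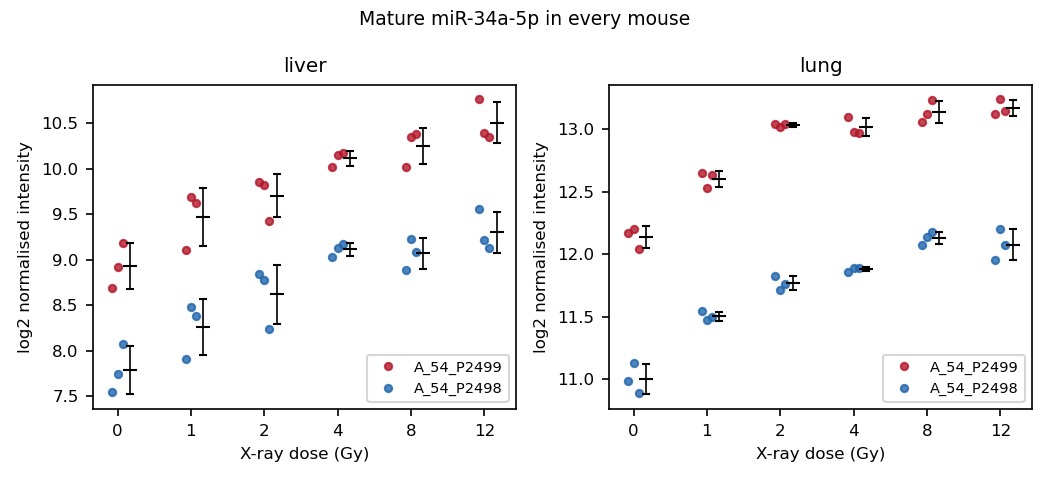
Log2 normalised intensity of the 2 miR-34a-5p probes (y axis) by X-ray dose (x axis, evenly spaced) in liver and lung. Points are mice, 3 per dose, and black marks are mean and SD. In liver the 0 Gy and 12 Gy points of A_54_P2499 span 8.69 to 9.19 and 10.35 to 10.76, and in lung every irradiated point lies above every control. The panels were normalised separately, and their levels cannot be set against each other.

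In lung, miR-34a-5p was higher than in the controls from the lowest dose on. The control lungs had log2 levels of 12.17, 12.20 and 12.04 (A_54_P2499). At 1 Gy they were 12.65, 12.53 and 12.63, and at 2 Gy 13.05, 13.02 and 13.04. Every lung at 1 Gy was higher than every control, and every lung at 2 Gy, on another slide, was higher than every lung at 1 Gy. At 4 Gy the levels were 13.10, 12.98 and 12.97, at 8 Gy 13.06, 13.12 and 13.24, and at 12 Gy 13.12, 13.24 and 13.15. For this probe these groups overlapped with their neighbours. For A_54_P2498, every 4 Gy lung was above every 2 Gy lung, and every 8 Gy lung above every 4 Gy lung. These steps were 0.11 and 0.25 on the log2 scale and did not pass the limma test (adjusted p = 0.687 and 0.999). The share of all lung probes with neighbouring dose groups apart in this way was not counted. Lungs with all mice above all controls were also common among other probes, at 6.17%, 30.1%, 26.2%, 26.9% and 15.2% of the 762 tested probes from 1 to 12 Gy.

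The log2 fold changes in lung were 0.47, 0.90, 0.88, 1.00 and 1.03 (standard error 0.065, n = 3 mice per dose). Adjusted p values from limma were 0.00179, 8.59e-07, 3.58e-07, 9.71e-08 and 4.21e-08. The second probe gave 0.50, 0.77, 0.88, 1.13 and 1.08 (standard error 0.071). At 1 Gy these were the only probes of 762 with an adjusted p below 0.05 in the upward direction (0.262%). By the size threshold both were called at 8 and 12 Gy, again the only 2 called higher at each of these doses (0.262%). The call at 8 Gy for A_54_P2499, which lay just past the threshold, was lost in 11 of 31 alternatives. Without control mouse 21, or without the 12 Gy lung of mouse 16, 2 lung calls were left of 4.

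The step from 1 to 2 Gy in lung passed the test for both probes (adjusted p = 0.00193 for A_54_P2499 and 0.0219 for A_54_P2498), and no step between higher doses did. At this step 13.6% of all tested lung probes rose with an adjusted p below 0.05, against 0% at the later steps, and the 2 Gy lungs were on another slide than the 1 Gy lungs. The median log2 fold change of all lung probes against 0 Gy was 0.17 at 2 Gy, 0.14 at 4 Gy, 0.16 at 8 Gy and 0.072 at 12 Gy. Within the slide that held both groups, the 1 Gy lungs were 0.47 and 0.50 above the controls for the 2 probes, and with a slide term in the lung fit these changes had an adjusted p of 0.00191. Within the slide that held all 8 and 12 Gy lungs and 2 of the 3 at 4 Gy, the higher doses were 0.16 to 0.24 above 4 Gy. With the slide term in the fit of both tissues, the 12 Gy lung change was 1.21 (adjusted p = 0.0235) for A_54_P2499 and 0.56 (adjusted p = 0.361) for A_54_P2498. The trend over 12 Gy was 0.77 and 0.88 (adjusted p = 0.00436 and 0.00109), below the size threshold that 0.525% of lung probes passed upward, while 7.87% had an upward trend of any size with an adjusted p below 0.05. With a slide term in the lung fit the trends were 0.38 and 0.37 (adjusted p = 0.509 and 0.596).

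A difference between the lung and liver responses of miR-34a-5p was not detectable with 3 mice per dose. When the 36 arrays were normalised and fitted together, the lung trend minus the liver trend over 12 Gy was -0.27 for A_54_P2499 (standard error 0.27, 95% confidence interval -0.82 to 0.27, adjusted p = 0.596). For A_54_P2498 it was -0.40 (95% confidence interval -0.99 to 0.20, adjusted p = 0.467). Of all probes, 1.28% had a trend that differed between the tissues with an adjusted p below 0.05. With the mouse as a block the same differences had adjusted p values of 0.404 and 0.310. At 0 Gy, A_54_P2499 was 0.04 higher in lung than in liver on the log2 scale (adjusted p = 0.825), where 37.8% of the 780 probes in this fit were called in either direction. This level difference depended on the scaling, as it was 2.80 with each array scaled to its 75th percentile over all probes and 2.30 in the authors' deposited series values. Which tissue has more miR-34a-5p at rest is thus not settled by these arrays. In both tissues, fewer cells of a type and less RNA per cell cannot be told apart in bulk RNA.

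The passenger strand miR-34a-3p was close to the limit of detection. In liver neither of its probes was above background on any array. In lung, A_54_P00004932 had log2 levels of 5.03, 5.16 and 5.08 in the controls, where 0, 0 and 2 of 15 spots were above background. At 8 Gy the levels were 5.76, 5.80 and 5.63, with 15, 13 and 13 spots above background. Every irradiated lung was higher than every control. The probe was well above background on 3 of 3 arrays at 4 Gy, 3 of 3 at 8 Gy and 1 of 3 at 12 Gy, and on 0 arrays at the other doses. It entered the test only through those arrays, so its values were chosen to be high there. The change is given as a bound where all 3 arrays measured it, at least 1.09-fold higher at 4 Gy and at least 1.11-fold at 8 Gy. The p values of the lung fit are left out, as they do not test these bounds. In the bound each control array counts at its lowest signal among probes well above background, and the bounds were computed under the main scaling only. The lung fit gave log2 fold changes of 0.61 and 0.64 at these doses, from control values below background. With the slide term in the fit of both tissues they were 0.34 and 0.34 (limma adjusted p = 0.50 and 0.634). Scaling to the 75th percentile of probes above background on all arrays turned the 12 Gy value to -0.17. In the joint fit without a slide term, 0.128% of all probes at 4 Gy and 0.256% at 8 Gy had a larger change in lung than in liver with an adjusted p below 0.05. This probe was among them, which is no test of a difference in response, as its liver values were below background.

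The lung arms of miR-34b and miR-34c had log2 fold changes below 1 at every dose, and none was called. For the guide strand miR-34b-5p (A_54_P2446), the control lungs had log2 levels of 13.63, 13.56 and 13.19, and the 12 Gy lungs 13.76, 13.92 and 13.68. For miR-34c-5p (A_54_P1248), the controls had 12.89, 12.82 and 12.35, and the 12 Gy lungs 13.00, 13.17 and 13.05. In both, every 12 Gy lung was above every control, and the control of mouse 21 was the lowest of all 18 lungs. The log2 fold changes at 12 Gy were 0.33 for miR-34b-5p (adjusted p = 0.0705) and 0.38 for miR-34c-5p (adjusted p = 0.0404).

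Over the 8 lung probes of miR-34b and miR-34c, the 12 Gy log2 fold changes ran from 0.27 to 0.65. The median over all tested lung probes was 0.072. The 8 probes read arms of 1 transcript in the same mice and are not independent. Adjusted p was below 0.05 for 0, 2, 0, 3 and 3 of the 8 probes from the lowest dose to the highest. In the upward direction, 0.262%, 19%, 3.54%, 13.6% and 5.91% of all tested lung probes had such a p. At 12 Gy the 3 were miR-34b-3p (A_54_P2450, 0.65, adjusted p = 0.0223), miR-34c-3p (A_54_P3384, 0.63, adjusted p = 0.0251) and the miR-34c-5p probe above. No step between neighbouring doses passed the test for any of the 8.

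These values rested in part on 1 control. For miR-34c-3p (A_54_P4417) the control lungs had 8.71, 8.78 and 8.00, the last in mouse 21, and the 12 Gy lungs 8.66, 8.91 and 8.82. For miR-34b-3p (A_54_P2451) they had 7.36, 7.46 and 6.72 against 7.59, 7.70 and 7.85 at 12 Gy. Mouse 21 had the lowest value of all 18 lungs in all 8 probes, and its miR-34a-5p level of 12.04 was the lowest too. Without this lung, the 12 Gy changes of the 8 probes ran from 0.05 to 0.39, and 1 of the 8 had an adjusted p below 0.05, miR-34b-3p (A_54_P2450, adjusted p = 0.0429). Leaving out the 12 Gy lung of mouse 16 or of mouse 26 left 0 of the 8, and leaving out the control of mouse 1 or of mouse 11 gave 4 or 5. With a slide term added to the fit of both tissues, 3 of the probes were below 0 at 12 Gy.

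**Figure D3:**
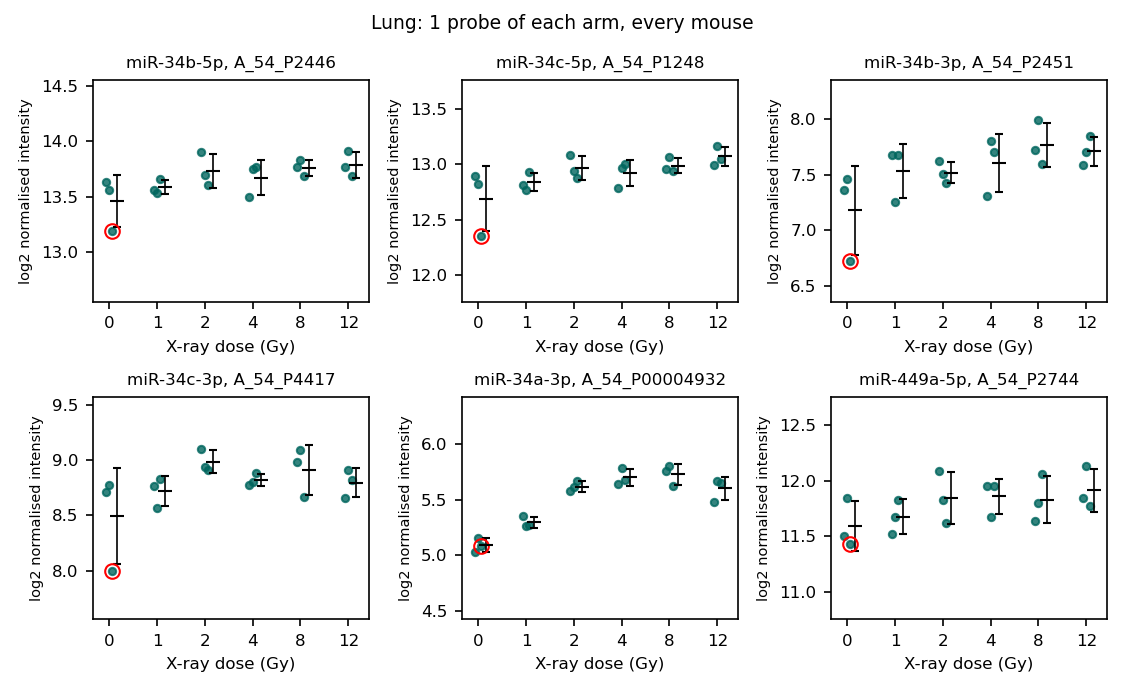
Log2 normalised intensity (y axis, each panel spanning 2 log2 units) by X-ray dose (x axis, evenly spaced) in lung for 1 probe of each further arm and for miR-449a-5p. Points are mice, 3 per dose, black marks are mean and SD, and the red ring marks control mouse 21. For miR-34c-3p the ringed point lies at 8.00 against 8.71 and 8.78 in the other controls.

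Before irradiation the guide strands of miR-34b and miR-34c were higher in lung than in liver. Liver was below the background limit for all of their probes, so the difference at 0 Gy is a bound set by the dimmest liver signal well above background. miR-34b-5p was at least 35.2-fold higher in lung (A_54_P2446) and at least 21.3-fold (A_54_P2445). miR-34c-5p was at least 17.8-fold (A_54_P1248) and at least 6.00-fold (A_54_P1247) higher. Among the 3p arms, only A_54_P4417 of miR-34c-3p gave a bound above 1, at least 1.51-fold. The seed relative miR-449a-5p was at least 8.60-fold and 4.08-fold higher in lung by its 2 probes. In this comparison 24.2% of the 780 probes were called higher in lung. The bounds were computed under the main scaling only. Under the alternatives the fitted log2 difference of A_54_P2446, from liver values below background, ran from 5.13 to 10.5, the lowest just below its bound. For A_54_P1247 it ran from 2.93 to 9.31.

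In lung, miR-449a-5p (A_54_P2743) had control levels of 10.18, 10.71 and 10.09 and 12 Gy levels of 10.63, 10.83 and 10.68, which overlap. Of the 14 miR-449 probes, 3 were tested in lung and 0 in liver. Their log2 fold changes at 12 Gy were 0.32 to 0.39, and none passed the test at any dose (adjusted p from 0.102 to 0.194 at 12 Gy). As a trend over 12 Gy, 1 of the 3 had an adjusted p below 0.05, miR-449a-5p (A_54_P2743, 0.38, adjusted p = 0.0433). The other probe of this miRNA, A_54_P2744, had a trend of 0.25 (limma adjusted p = 0.182). Of all lung probes, 7.87% had such an upward trend, and the higher doses cannot be told apart from the slide.

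Genes of multiciliated cells, the cells known for high miR-34b, miR-34c and miR-449, were set beside these values. Of 18 such genes, 16 could be matched on the mRNA array, and all 16 were well above background on all 18 lung arrays. Of the 16, 12 were well above background on at least 1 liver array, 4 of them on all, and Dnah5, Ccdc39, Tekt1 and Rsph1 were so on none. In lung the summed level of the 16 genes was 102244 to 129911 in the controls, with the lowest value in mouse 21, and 141828 to 162102 at 12 Gy, above all controls. In liver, on the scale of the liver arrays, that of the 12 genes was 761 to 868 in the controls and 688 to 810 at 12 Gy.

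Of the 16 genes, 3 were called higher in lung at 12 Gy and 1 lower, and 9 were higher and 1 lower with an adjusted p below 0.05. Of all lung mRNA probes, 3.02% were called higher and 4.27% lower, and 13.5% were higher and 7.81% lower at any size. Tekt4, a tektin of the ciliary axoneme (log2 fold change 1.22), and Dnah9, an axonemal dynein heavy chain (1.13), had the largest rises. Mcidas, a regulator that starts the multiciliated programme, fell by 1.88 on the log2 scale. Foxj1, the transcription factor of motile cilia, had a log2 fold change of -0.19 (adjusted p = 0.588, named after its value was seen). The median of the list was 0.61, against 0.094 for all lung probes, and its part in the miR-34b and miR-34c values was not tested.

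**Figure D4:**
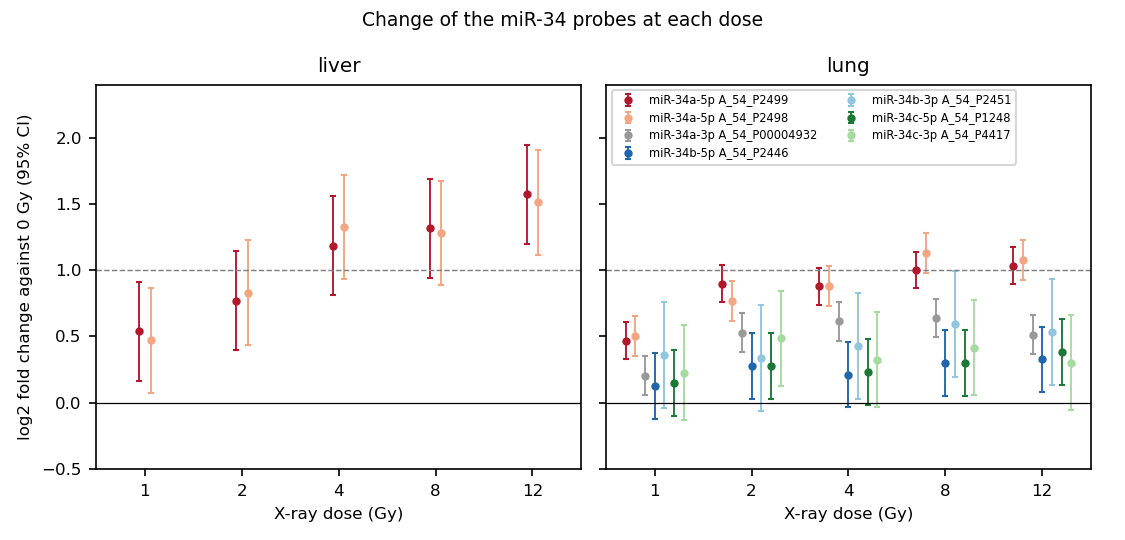
Log2 fold change against 0 Gy (y axis) by X-ray dose (x axis, evenly spaced) for miR-34 probes in liver and lung. Bars are 95% confidence intervals of the limma fit, and the dashed line is the size threshold of 1. In liver both miR-34a-5p probes exceed it from 4 Gy on, while in lung at 12 Gy miR-34a-5p lies at 1.03 and 1.08 and the miR-34b and miR-34c probes shown between 0.30 and 0.53.

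Other genes that p53 is known to activate rose in the same mice. In lung, their changes at 2 Gy and above cannot be told apart from the slide of the mRNA arrays. A list of 20 such targets was read from the mRNA arrays, with 1 probe per gene, and all 20 were tested in both tissues. The list was chosen with earlier results of these data known, so its counts are not an independent test. In liver 2, 4, 6, 10 and 13 of the 20 were called higher from the lowest dose to the highest, and in lung 3, 4, 10, 15 and 16, with 0 called lower at 12 Gy. Over all liver probes on the mRNA arrays, 0.013%, 0.0808%, 0.321%, 0.839% and 0.73% were called higher. Over all lung probes, 0.0114%, 0.0705%, 0.246%, 0.528% and 3.02% were. The median log2 fold change of the list at 12 Gy was 1.62 in liver and 1.76 in lung, against 0.0089 and 0.094 for all tested probes.

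The largest rises at 12 Gy were in Cdkn1a, an inhibitor of cyclin-dependent kinases (log2 fold change 6.33, adjusted p = 2.32e-09), and Phlda3, an inhibitor of AKT signalling (3.92, adjusted p = 2.32e-09), in liver. In lung they were in Gdf15, a secreted stress cytokine (4.52, adjusted p = 1.08e-09), and Eda2r, a member of the TNF receptor family (4.46, adjusted p = 1.08e-09). Cdkn1a in lung rose by 3.64 (adjusted p = 1.93e-08). All adjusted p values are from limma with n = 3 mice per dose. These mRNA changes are on another array type than the miRNA, and their sizes are given side by side only.

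The levels of Cdkn1a are given for each group as the best known of these targets. In liver, Cdkn1a log2 levels were 5.94, 6.75 and 6.70 in the controls and 12.57, 12.61 and 13.17 at 12 Gy. In lung they were 11.37, 11.79 and 11.49 in the controls and 15.26, 15.03 and 15.29 at 12 Gy. At 2 Gy the lung levels of Cdkn1a were 13.51, 13.36 and 13.41, all below the 12 Gy lungs and above the controls. Over the 18 mice of a tissue, which share their dose groups, Pearson's r of the log2 levels was 0.935 in liver and 0.916 in lung (A_51_P363947).

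**Figure D5:**
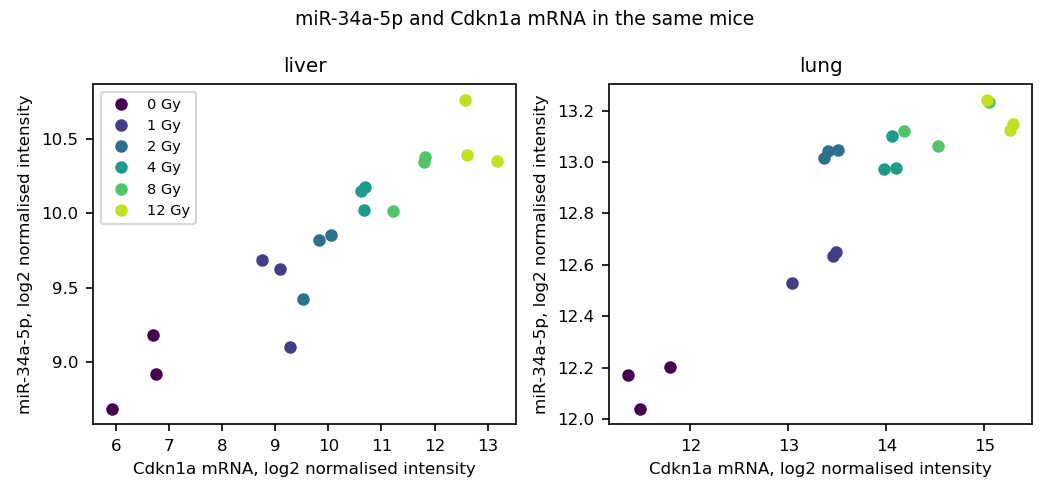
Log2 normalised intensity of miR-34a-5p (y axis, A_54_P2499) against that of Cdkn1a mRNA (x axis) in liver and lung. Each point is 1 of 18 mice, coloured by dose. In lung the 3 mice at 2 Gy lie between 13.02 and 13.05 for miR-34a-5p and the 12 Gy mice at 13.12 to 13.24, where Cdkn1a is 15.03 to 15.29. The 2 Gy and 12 Gy lungs were on different slides on both array types. The second probe, A_54_P2498 (not shown), had lung log2 fold changes of 0.77 at 2 Gy and 1.08 at 12 Gy.

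The genes with the most similar pattern were found by the correlation of log2 levels over the 18 mice, among probes well above background on all arrays. In liver the 5 most similar mRNAs were A930001C03Rik (r = 0.962), Dcaf6 (0.954), Gm45941 (0.950), Ephx1 (0.940) and Cep170b (0.938), out of 16524 candidates. In lung they were Cdkn1a (r = 0.954, A_55_P1986282), Dglucy (0.950), Hspbap1 (0.949), A930001C03Rik (0.947) and Eda2r (0.945), out of 18925. A930001C03Rik was on both lists. Among miRNAs, the closest in lung was miR-30d-5p (r = 0.949), followed by miR-30c-5p (0.887) and miR-6412 (0.865). In liver the closest miRNAs were miR-8110 (0.655), miR-3960 (0.593) and miR-29b-3p (0.581). These r values describe the 18 mice, whose dose groups and arrays are shared between the genes compared.

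None of the other miRNAs that have been tied to p53 was called at 12 Gy. Of a list of 10, 7 were tested in liver and 9 in lung. Of all tested probes, 5 of 390 in liver and 9 of 762 in lung were called at 12 Gy. With calls this rare, 0 calls in so short a list do not set its members apart. Their median log2 fold change at 12 Gy was -0.12 in liver and 0.01 in lung, against -0.18 and 0.072 for all tested probes. The only member with an adjusted p below 0.05 at 12 Gy was miR-107-3p in lung, which fell by 0.25 on the log2 scale (adjusted p = 0.00319, named after its value was seen). In lung 8.14% of all tested miRNA probes were lower with such a p.

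A list of 29 mRNAs described as miR-34 targets was read from the mRNA arrays. In liver 28 were tested and 0 were called at 12 Gy, where 1 was higher and 3 were lower with an adjusted p below 0.05. In lung, 29 were tested, and at 12 Gy 0 were called higher and 2 lower, while 5 were higher and 4 lower with an adjusted p below 0.05. Lef1, a transcription factor of Wnt signalling that is also known from developing lymphocytes, fell by 1.90 on the log2 scale (adjusted p = 0.000478). Mycn, a transcription factor that drives proliferation, fell by 1.56 (adjusted p = 0.000355). At 12 Gy, 1.33% of liver probes and 4.27% of lung probes were called lower, and 0.73% and 3.02% were called higher. Beside these shares, counts this small in a list of 29 do not tell whether the targets responded. At any size with an adjusted p below 0.05, 2.91% of liver probes were higher and 4.1% lower, and in lung 13.5% were higher and 7.81% lower. The median log2 fold change of the list at 12 Gy was 0.16 in liver and 0.13 in lung, against 0.0089 and 0.094 for all tested probes.

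Markers of lymphocytes were lower at the highest dose in both tissues. At 12 Gy in lung 8 of 8 B cell genes and 8 of 8 T cell genes were called lower, with median log2 fold changes of -3.51 and -4.02, where 4.27% of all lung probes and 1.33% of all liver probes were called lower. The summed level of the B cell genes in lung was 12458 to 28740 in the controls and 1056 to 1306 at 12 Gy. For the T cell genes the control lungs had 9339, 13998 and 47790, the last standing apart, and the 12 Gy lungs 1210 to 1952. In liver 4 of 7 tested B cell genes and 4 of 8 T cell genes were called lower, but 1 of each with a slide term, with summed B cell levels of 694 to 1052 in the controls and 255 to 331 at 12 Gy, and summed T cell levels of 3465 to 3898 and 2316 to 2687.

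Of 6 leukocyte miRNAs, all 6 in lung and 4 of 4 tested in liver were lower at 12 Gy with an adjusted p below 0.05, and 3 in lung were called. Such falls made up 8.72% of the liver probes and 8.14% of the lung probes. The 3 called were miR-142a-5p (-1.92), miR-150-5p (-1.61) and, named after its value was seen, miR-142a-3p (-1.56). The summed level of the tested miRNAs of this list in lung went from 23272 to 25491 in the controls to 9374 to 11924 at 12 Gy. In liver it went from 1369 to 1527 in the controls to 812 to 914 at 12 Gy.

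Of the erythroid genes, 6 were tested in each tissue. In lung 3 were called lower at 12 Gy, namely Alas2, the first enzyme of haem synthesis in red cells (-6.71), Slc4a1, the anion exchanger of their membrane (-3.56), and, named after its value was seen, Kel (-1.19). In liver Alas2 (-1.26) and Slc4a1 (-1.16) were called lower, and 0 genes were with a slide term. The other tested genes did not all fall. In lung Hemgn rose by 0.74 (limma adjusted p = 0.00218) and Klf1 by 0.47, while Epb42 fell by 0.99. In liver Epb42, Rhag, Hemgn and Klf1 had log2 fold changes of 0.27 to 0.83, none called. The median of the list was -1.09 in lung and 0.33 in liver. Of all probes, 4.27% in lung and 1.33% in liver were called lower. The summed level in lung was 19980 to 22172 in the controls and 11871 to 14420 at 12 Gy, and in liver 27192 to 34288 and 33394 to 39032. Of 4 erythroid miRNAs, 0 were called in either tissue, and miR-451a in lung was 0.38 higher (adjusted p = 0.0428, named after its value was seen). The part of the lymphocyte, leukocyte and erythroid shifts in the rise of miR-34a-5p was not tested.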

How the data were processed

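Liver and lung RNA of 18 mice (3 per dose) was hybridised to 1-colour Agilent miRNA and mRNA arrays. Per the file headers, the authors deposited the output of Agilent Feature Extraction 11.5.1.1, which holds an intensity for every spot and was not normalised. From the median and background intensities, limma 3.58.1 (R 4.3.3) applied normexp correction with an offset of 0. Control spots were then dropped, outlier spots set to missing, arrays of 1 tissue quantile-normalised, and spots of a probe averaged on the log2 scale. The authors' deposited series values (a processed intensity) were put on the log2 scale and used as an alternative only. Probes above background on at least 1 array entered a limma model of the 6 doses, with Benjamini-Hochberg adjustment over all of them. Trends are changes over 12 Gy. A joint fit of all 36 miRNA arrays compared the tissues. The model was tested on simulated data.

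mRNA probes were named by RefSeq accession (34566 of 56605 matched), taking the brightest probe of a gene. Members and gene lists were chosen with earlier results of these data known. Of each list, the 2 called genes with the largest rise and the 2 with the largest fall at 12 Gy in each tissue are named, plus the 3 miRNAs and 5 mRNAs most similar to miR-34a-5p. Liver and lung of 1 mouse number were taken as 1 animal by the labels. Their deviations from the group means correlated between -0.14 and 0.26 over the 18 pairs (220 probes). No pair of arrays held identical values. The number of arrays limits precision.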

Additional observations from a re-analysis of the deposited data

Results flagged for a closer look

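The joint fit of both tissues gave the miR-34a-3p probe A_54_P00004932 a lung change minus liver change of 0.628 at 4 Gy (adjusted p = 0.0464, limma) and 0.636 at 8 Gy (adjusted p = 0.0404) on the log2 scale. Of the 780 probes, 0.128% and 0.256% had a larger change in lung with such a p. The probe was well above background on 0 of the 18 liver arrays and on 0 of the 3 control lungs, and it entered the fit only through irradiated lungs, so these values do not test a difference in response between the tissues. With a slide term, chosen after seeing the data, they were 0.37 (adjusted p = 0.703) and 0.41 (adjusted p = 0.696). With each array scaled to its 75th percentile over probes above background on all arrays, the 4 Gy value was -0.093.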

How the results depend on the processing

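Of 6 liver calls, 0 were left with scaling to the 75th percentile over all probes and 3 with the probes of a miRNA averaged (which leaves 1 value per dose) or with the total gene signal, and leaving out 1 array gave 6 to 7. Of 4 lung calls, these scalings gave 37 over all probes, 1 over probes above background on all arrays and 12 with the processed signal, while averaging gave 2 and the slide term in the fit of both tissues 2. Leaving out 1 lung array gave 2 to 4. The 2 called trends became 0 over all probes and 1 when averaged, and leaving out 1 array gave 2 to 3. For neighbouring doses, 0 calls became 9 over all probes and 1 with the total gene signal. Scaling over all probes moved the median change over all probes (log2) from 0.17 to 0.87 in lung at 2 Gy and from -0.062 to -0.60 in liver at 2 Gy, and scaling over probes above background on all arrays moved them to -0.32 and 0.39. The causes were not tested. The total gene signal and the slide term of both tissues together were chosen after seeing the data.

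The 0 Gy difference of miR-34a-5p between lung and liver (0.04) was 2.80 over all probes and 2.30 in the authors' series values, but -0.10 for both probes with the total gene signal. Leaving out 1 array gave -0.091 (without liver control mouse 1) to 0.18, and for A_54_P2498 -0.11 (without that liver) to 0.22, with -0.010 without lung control mouse 11. Scaling over all probes turned the liver 2 Gy changes to -0.16 (A_54_P2499) and -0.084 (A_54_P2498). Scaling over probes above background on all arrays turned miR-34a-3p in lung at 12 Gy to -0.17 and its 4 Gy tissue difference to -0.093. The slide term turned lung 12 Gy values to -0.22 (A_54_P2451), -0.14 (A_54_P2445) and -0.083 (A_54_P4417).

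The tissue difference in trend kept its sign under every alternative run (-0.81 to -0.11). With the mouse as a replicate block it was -0.27, and the block changed no call. Called p53 targets at 12 Gy numbered 11 to 14 in liver and 14 to 17 in lung. In the lung alone a slide term was not estimable for 2 Gy and above against 0 Gy, nor for 2 against 1 Gy, nor for the 12 Gy mRNA lists, and was not run for these. Probes near background carry little information on low levels.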
